A study of Mus musculus with 12 samples.

Results

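The genes described here are 10 enzymes and redox proteins that red cells and their precursors carry: the carbonic anhydrases Car1 and Car2, the superoxide dismutases Sod1 and Sod2, catalase (Cat), the peroxiredoxin Prdx2, the glutathione peroxidases Gpx1 and Gpx4, thioredoxin (Txn1) and thioredoxin reductase (Txnrd1). They were chosen by symbol from a table of 24107 mouse genes. All 10 passed the filter for low values. RNA sequencing had been done on bone marrow of C57BL/6 mice in 4 groups of 3 libraries. Wild-type mice were the source of 2 control groups: sorted megakaryocyte-erythroid progenitors (MEP, which give rise to red cells and platelets) and whole marrow. The other 2 groups, leukemic MEP and GFP+ marrow cells, have the genotype Prdm16s, a short form of the transcriptional regulator Prdm16, and were taken from recipient mice with leukemia. The control marrow was not selected for GFP, so the marrow comparison sets a selected population against an unselected one. The labels used here give no age, no transgene promoter and no sorting markers, and they do not say whether the 3 libraries of a group come from separate mice, so p-values measure the spread between libraries, which may be technical.

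Carbonic anhydrases interconvert carbon dioxide and bicarbonate, and in red cells this lets blood carry carbon dioxide to the lungs. Red cells also carry haemoglobin and oxygen together, a steady source of superoxide: superoxide dismutases turn superoxide into hydrogen peroxide, and catalase, peroxiredoxins and glutathione peroxidases remove the peroxide. Thioredoxin returns oxidised peroxiredoxin to its active form and is itself reduced by thioredoxin reductase at the cost of NADPH.

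Leukemic MEP replicate 3 was the shallowest library, with 571630 reads assigned to genes, and GFP+ marrow replicate 2 the next, with 1149607. The other 10 held 6717527 to 9707791 reads. Leukemic MEP replicate 3 also went against its label: the summed level of 10 granulocyte markers was 94619 FPKM (fragments per kilobase of transcript, scaled to the library, a level per length) there, against 1018 and 2463 FPKM in replicates 1 and 2, 27 to 401 FPKM in control MEP and 75953 to 93115 FPKM in control marrow, with none of the 10 at 0 in any library. Its 8 erythroid markers summed to 159 FPKM, against 1410.3 and 1869 FPKM in leukemic MEP replicates 1 and 2 and 1198 to 1585 FPKM in control MEP. The sum in replicates 1 and 2 was thus not below that of control MEP, but its members did not move alike. The erythroid transcription factor gene Klf1 was at 278 and 213 FPKM there, against 585 to 852 FPKM in control MEP. The erythropoietin receptor gene Epor was at 46.2 and 37.4 FPKM, against 108 to 150.5 FPKM. Gata1 was lower as well, so other markers of the list made up more of the sum in replicates 1 and 2. The mean of log2(FPKM + 1) over these 8 genes was 4.98 and 5.14 in those replicates and 5.22 to 5.81 in control MEP. Megakaryocyte markers (8 genes) summed to 306 FPKM in leukemic MEP replicate 3, 4670.4 and 5695 FPKM in the other 2, and 9.91 to 125 FPKM in control MEP. In marrow the erythroid markers summed to 1843 to 2757 FPKM in the controls and to 155 to 275 FPKM in GFP+ cells. The monocyte and macrophage markers summed to 1045 to 1098 FPKM in control and 60.2 to 96.9 FPKM in GFP+ marrow, and to at most 10.8 FPKM in MEP libraries other than leukemic MEP replicate 3 (109 FPKM). Xist, the RNA of the inactive X chromosome, stood at 39.2 to 57.1 FPKM in replicates 1 and 2 of both Prdm16s groups. It was at most at 0.0904 FPKM in the other 8 libraries. The Y-linked gene Ddx3y was at most at 0.392 FPKM in replicates 1 and 2 of both Prdm16s groups. It was at 10.3 to 20.7 FPKM in the control libraries and at 27.6 and 23.1 FPKM in replicate 3 of the Prdm16s groups. Replicate 3 of each Prdm16s group thus differs from its companions and is like the controls in this respect. For replicates 1 and 2 this difference goes with genotype in both the MEP and the marrow comparison. The 2 cannot be told apart there. Values without leukemic MEP replicate 3 are given beside the MEP changes of the 10 genes and some of the other results it enters. The part that marker levels or depth play in the results was not tested. In whole populations, fewer cells of a type and less RNA per cell cannot be told apart.

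Of the 10 genes, 4 fell and 0 rose in leukemic against control MEP, and 3 fell and 0 rose in GFP+ against control marrow (limma on log2(FPKM + 1), called at an adjusted p under 0.05). Among all 11462 genes tested, 26% were called in the MEP comparison, 12.3% as lower and 13.7% as higher. In marrow 9.05% were called, 6.03% as lower and 3.02% as higher. The median log2 change of the 10 was -0.64 in MEP and -0.22 in marrow, against 0.02 and -0.05 over all genes tested. Car1, Car2 and Prdx2 fell in both comparisons, and Sod2 in MEP. By this same rule no change in Sod1, Cat, Gpx1, Gpx4, Txn1 or Txnrd1 passed in either.

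**Figure D1:**
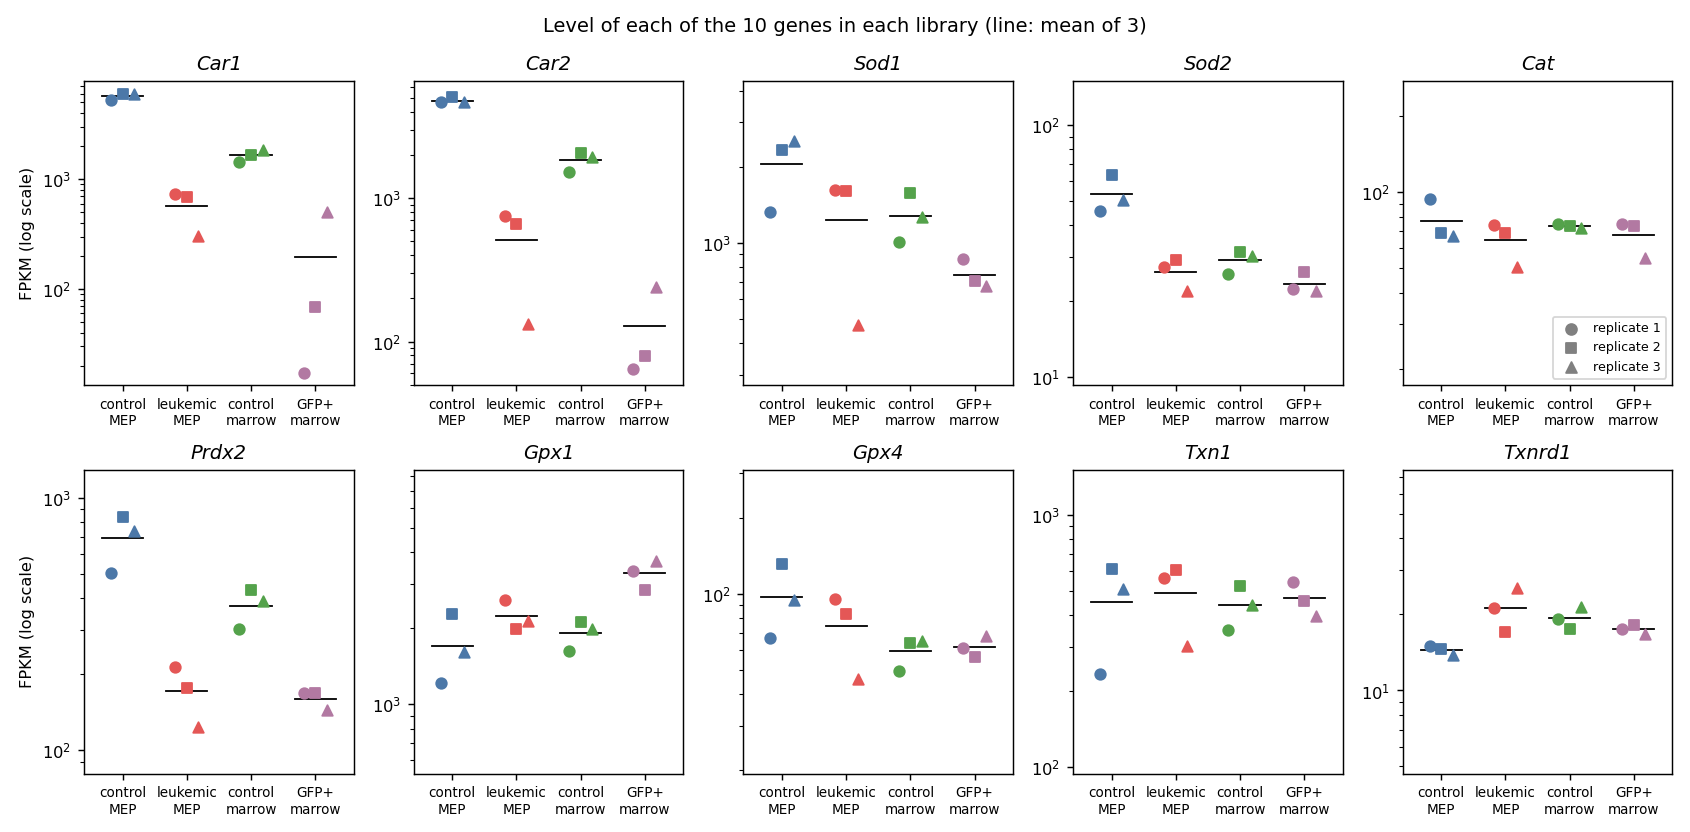
Level of each of the 10 genes in FPKM (log axis) in each of the 12 libraries, grouped along the horizontal axis; circles, squares and triangles are replicates 1, 2 and 3 and the line is the group mean. Car1 spans 17.3 to 6032 FPKM and Cat 50.5 to 93.9 FPKM, and leukemic MEP replicate 3 is the lowest of its group for 8 of the 10 genes.

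Car1, a cytosolic carbonic anhydrase abundant in red cells, was the highest gene of the whole table in each control MEP library, at 5219, 6032 and 5991 FPKM in replicates 1, 2 and 3. In leukemic MEP it stood at 732, 684 and 301 FPKM. The lowest control library was far above the highest leukemic one, and within the leukemic group replicate 3 was the low library. Mean levels were 5747 ± 458 and 572 ± 237 FPKM (SD, n = 3 each), 10-fold lower in leukemic MEP, and Car1 fell by 3.43 ± 0.86 (SE) on the log2 scale with an adjusted p = 0.0117. Without leukemic MEP replicate 3 the change was -3.02 ± 0.91 with an adjusted p = 0.028. In marrow, control libraries had 1436, 1673 and 1849 FPKM and GFP+ libraries 17.3, 68.3 and 506 FPKM. The groups did not overlap, yet the GFP+ libraries differed among themselves by 29.3-fold, with replicate 3 the high one. Means were 1653 ± 208 and 197 ± 269 FPKM (SD, n = 3 each), 8.38-fold lower in GFP+ marrow, and Car1 fell by 4.25 ± 0.86 on the log2 scale (adjusted p = 0.00864). Leaving out GFP+ replicate 3 brought the GFP+ mean to 42.8 FPKM and the change to -5.53 ± 0.53 (adjusted p = 0.000104). Taking replicate 3 as the sole Prdm16s library of each population gave a marrow change of -1.70, which rests on 1 GFP+ library.

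Car2, the faster of the red cell carbonic anhydrases, ranked 2 or 3 in the control MEP libraries, at 4679, 5068 and 4666 FPKM. The leukemic MEP libraries held 749, 659.7 and 133 FPKM. Again every leukemic library lay below every control library, and replicate 3 was the lowest. The means of 4804 ± 228 and 514 ± 333 FPKM (SD, n = 3 each) differed 9.35-fold, and Car2 fell by 3.57 ± 0.60 on the log2 scale (adjusted p = 0.00113). Without leukemic MEP replicate 3 the mean was 704 FPKM and the change -2.77 ± 0.42 (adjusted p = 0.000458). Control marrow had 1534, 2064 and 1953 FPKM and GFP+ marrow 64.6, 79.2 and 239 FPKM, again with replicate 3 the highest of its group and no overlap. The marrow means were 1850.3 ± 280 and 128 ± 96.7 FPKM (SD, n = 3 each), 14.5-fold lower in GFP+ cells, with a fall of 4.09 ± 0.60 on the log2 scale (adjusted p = 0.0013). Leaving out GFP+ replicate 3 brought the GFP+ mean to 71.9 FPKM and the change to -4.66 ± 0.60 (adjusted p = 0.000921). Taking replicate 3 as the sole Prdm16s library of each population gave -5.17 in MEP and -2.94 in marrow. Each of these changes rests on 1 Prdm16s library, which in MEP is the shallow library with granulocyte markers. The loss of Car1 and of Car2 passed the test under each of the 23 other ways of fitting tried in each population. Among these is the fit with replicate 3 only, whose p-values rest on 1 library in a Prdm16s group.

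Car1 and Car2 are neighbours. On the mouse build GRCm38, Car1 lies at chr3:14766214-14808365 and Car2 at chr3:14886269-14900770, with 77.9 kb between them. Car3, a carbonic anhydrase best known from muscle, lies in that gap and was at 0.762 to 5.73 FPKM over the 12 libraries. Car13, on the other side of Car1, was at 1.46 to 15.2 FPKM. Both neighbours were far below the levels of Car1 and Car2 in the control libraries. Together Car1 and Car2 made up 2.19 to 2.51% of the summed FPKM of control MEP, 0.0895 to 0.348% of leukemic MEP, 0.631 to 0.724% of control marrow and 0.0135 to 0.12% of GFP+ marrow.

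**Figure D2:**
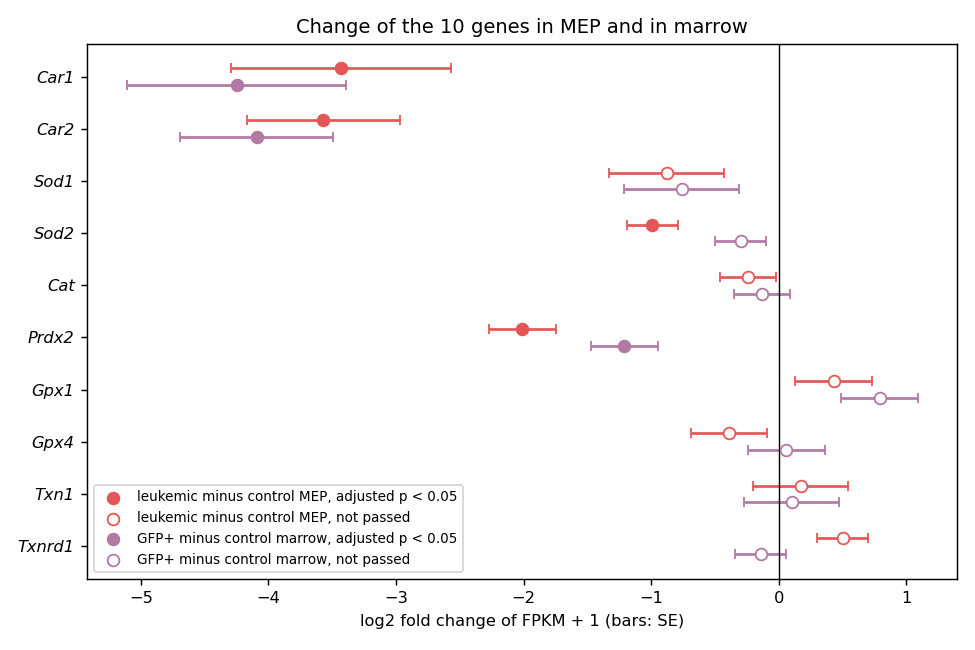
Log2 fold change of FPKM + 1 (horizontal axis, bars are the SE) for each of the 10 genes in leukemic minus control MEP and in GFP+ minus control marrow; filled symbols passed an adjusted p of 0.05. Car1 and Car2 lie between -3.43 and -4.25 in both populations, Prdx2 at -2.01 and -1.21, and Sod2 passed in MEP at -0.99.

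The levels were also divided, within each library, by those of 2 transcription factor genes: Gata1, of the erythroid, megakaryocyte, mast cell and eosinophil lineages, and Klf1, of the erythroid lineage. Neither ratio measures the erythroid share of a library. Gata1 itself was at 302, 335 and 289 FPKM in control MEP, 242, 209.6 and 37.7 FPKM in leukemic MEP, 102, 139 and 129 FPKM in control marrow and 20.1, 24.6 and 39 FPKM in GFP+ marrow. The Car2 to Gata1 ratio was 15.5, 15.1 and 16.1 in control MEP and 15, 14.9 and 15.1 in control marrow. In leukemic MEP it was 3.09, 3.15 and 3.52, and in GFP+ marrow 3.22, 3.22 and 6.12. The 6 control libraries thus lay between 14.9 and 16.1 and the 6 Prdm16s libraries between 3.09 and 6.12. Leukemic MEP replicate 3, the library with granulocyte markers, had a Car2 to Gata1 ratio close to that of replicates 1 and 2. For Car1 the ratio was 17.3, 18 and 20.7 in control MEP, 14.1, 12.1 and 14.3 in control marrow, 3.02, 3.26 and 7.97 in leukemic MEP and 0.861, 2.78 and 13 in GFP+ marrow. Replicate 3 of each Prdm16s group was the high one, and in GFP+ marrow it lay within the range of control marrow. Relative to Klf1 the gap was smaller. The Car2 to Klf1 ratio was 5.94 to 9.19 over the 6 control libraries and 2.7 to 5.14 over the 6 Prdm16s libraries, GFP+ replicate 1 being the high one. The Car1 to Klf1 ratio was 5.42 to 9.08 over the control libraries. In replicates 1 and 2 it lay below that range, at 2.64 and 3.21 in leukemic MEP and 1.38 and 2.76 in GFP+ marrow. In replicate 3 of both Prdm16s groups, at 7.25 and 7.24, it lay within that range. These ratios were examined after the levels were known and are given as a description without a test. Megakaryocytes also express Gata1, and their markers were high in leukemic MEP, and the part this plays in the ratios was not tested.

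**Figure D3:**
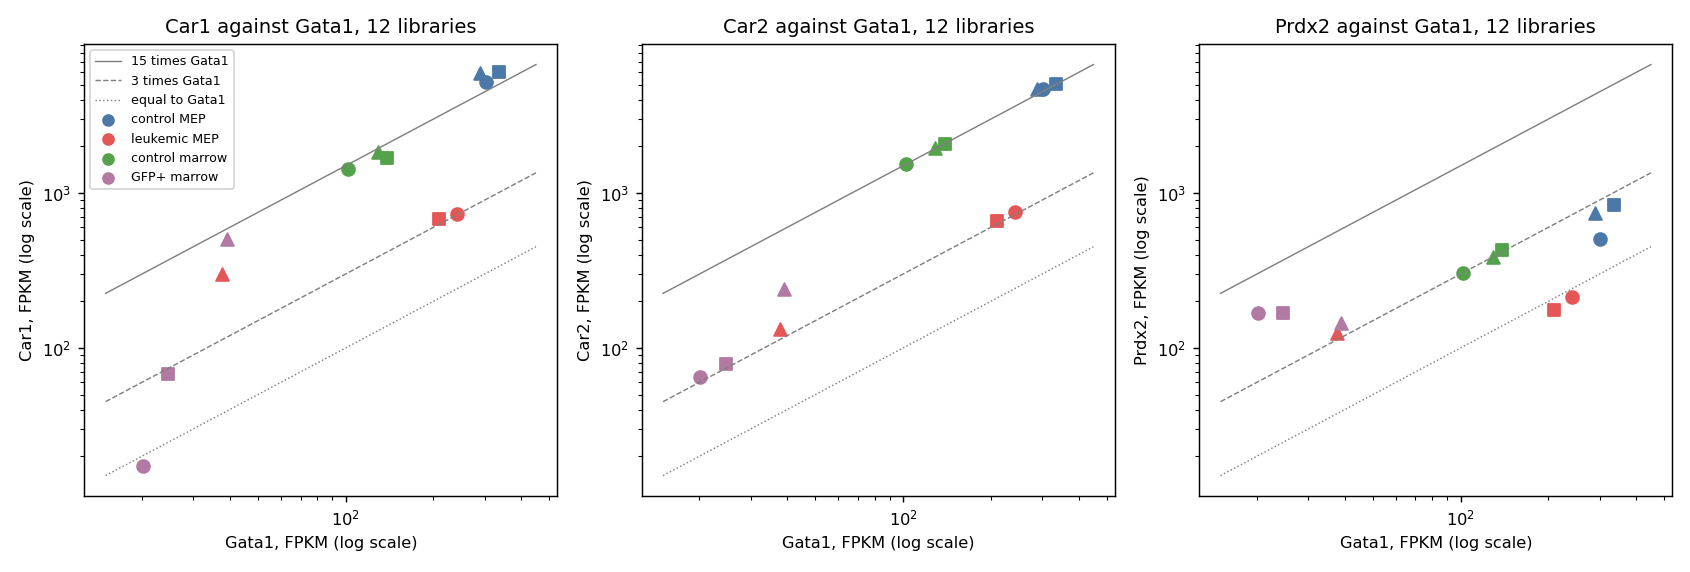
Levels of Car1, Car2 and Prdx2 (vertical axes) against Gata1 (horizontal axes) in the 12 libraries, all in FPKM on log axes; colours are groups, symbols are replicates, and grey lines mark fixed multiples of Gata1. For Car2 the 6 control libraries lie at 14.9 to 16.1 times Gata1 and the 6 Prdm16s libraries at 3.09 to 6.12 times, whereas Prdx2 in GFP+ marrow lies above the control ratio of 2.97 to 3.1.

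Sod1, the copper and zinc superoxide dismutase of the cytosol, was the more abundant of the dismutases in every library, at 21.5 to 59.3 times the level of Sod2. Its levels in control MEP were 1321, 2329.9 and 2517 FPKM and in leukemic MEP 1617, 1607 and 473 FPKM. The groups overlapped: leukemic replicates 1 and 2 lay above control replicate 1, and replicate 3 lay below all others. The change of -0.88 ± 0.45 on the log2 scale did not pass (adjusted p = 0.166) and was -0.30 ± 0.29 without leukemic MEP replicate 3 (adjusted p = 0.513). In marrow Sod1 was at 1003, 1566 and 1267 FPKM in controls and 859.8, 706 and 670.3 FPKM in GFP+ cells. Every GFP+ library lay below every control library, but the change of -0.76 ± 0.45 did not pass (adjusted p = 0.33). Sod2, the manganese enzyme of mitochondria, was at 45.7, 63.3 and 50.5 FPKM in control MEP and 27.3, 29.3 and 22 FPKM in leukemic MEP. Without overlap between the groups, the means of 53.2 ± 9.1 and 26.2 ± 3.79 FPKM (SD, n = 3 each) differed 2.03-fold, and Sod2 fell by 0.99 ± 0.20 on the log2 scale (adjusted p = 0.00369). Leaving out leukemic MEP replicate 3 gave -0.87 ± 0.20 (adjusted p = 0.00629). In marrow Sod2 was at 25.7, 31.5 and 30.4 FPKM in controls and 22.4, 26.1 and 22 FPKM in GFP+ cells, which overlapped, and the change was -0.30 ± 0.20 (adjusted p = 0.396). The difference between the MEP and marrow changes of Sod2 was -0.69 ± 0.28 and did not pass (adjusted p = 0.228).

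Cat, which breaks down hydrogen peroxide in peroxisomes and in the red cell cytosol, differed 1.86-fold between its highest and lowest library, a spread close to that of Txnrd1 (1.83-fold) and below those of the other 8 genes. It was at 93.9, 68.6 and 67.1 FPKM in control MEP and 74.2, 68.7 and 50.5 FPKM in leukemic MEP. Control marrow had 74.8, 73.1 and 72.2 FPKM and GFP+ marrow 74.7, 73.7 and 55 FPKM. The libraries of every group overlapped those of the others, and both replicate 3 libraries of the Prdm16s groups were the lowest of their group. The changes were -0.24 ± 0.22 in MEP (adjusted p = 0.432) and -0.13 ± 0.22 in marrow (adjusted p = 0.777). Without leukemic MEP replicate 3 the MEP change of Cat was -0.08 ± 0.20 (adjusted p = 0.818).

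Prdx2, a peroxiredoxin that is among the most abundant proteins of the mature red cell, lies at chr8:84969622-84974811 on GRCm38. The 250 bases before its start are shown beside those of Gpx1, at chr9:108339080-108340342, because of these 2 peroxide-removing enzymes 1 fell in both populations and the other did not. The sequences are from RefSeq, GRCm38.p6, plus strand, 5′ to 3′, and span chr8:84969372-84969621 for Prdx2 and chr9:108338830-108339079 for Gpx1. Capitals mark matches on either strand to CCNCNCCC, a motif bound by Kruppel-like factors such as the erythroid factor Klf1.
Prdx2: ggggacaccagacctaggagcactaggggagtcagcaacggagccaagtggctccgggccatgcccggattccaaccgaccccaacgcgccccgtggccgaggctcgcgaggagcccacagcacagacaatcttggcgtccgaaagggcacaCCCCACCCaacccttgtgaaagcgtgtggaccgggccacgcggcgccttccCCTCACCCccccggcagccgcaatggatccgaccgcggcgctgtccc
Gpx1: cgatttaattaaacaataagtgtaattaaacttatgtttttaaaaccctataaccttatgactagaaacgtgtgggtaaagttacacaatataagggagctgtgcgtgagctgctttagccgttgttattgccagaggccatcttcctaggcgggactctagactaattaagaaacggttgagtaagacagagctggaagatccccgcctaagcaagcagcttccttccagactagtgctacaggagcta
The Prdx2 window had 2 matches, with first bases at -98 and -47 from the start, and a GC content of 69.2%. The Gpx1 window had none and a GC content of 42%. Of 32851 promoter windows of this length, 45.9% held a match, and the median GC content was 52.4%, so a match is common. Of the 8 genes with a RefSeq promoter, 7 had a match at 1 or more of their starts. Among them were Cat, Txn1, Sod1, Gpx4 and Txnrd1, whose changes did not pass. Of the genes that fell, Prdx2 and Sod2 alone could be searched, and both had a match. Whether the motif goes with the falls was not tested. Neither window shown matched the GATA motifs TGATAA or AGATAA, found in 7.94% and 9.99% of windows, nor TGACNNNGC, the antioxidant response element, found in 10.2%. Of the 10 genes, 8 had an entry among the RefSeq promoters, Car1 and Car2 not being among them. TGACNNNGC was matched at -56 from the start of Sod1 and at -92 from 1 of 3 starts of Txnrd1, and TGATAA, in windows that overlap, at -145 and -239 from 2 of the 4 starts of Gpx4. A match is a description of letters and not evidence of binding.

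Prdx2 levels were 502, 841 and 741 FPKM in control MEP and 213, 177 and 124 FPKM in leukemic MEP. The highest leukemic library was far below the lowest control library. Means of 695 ± 174 and 172 ± 44.5 FPKM (SD, n = 3 each) differed 4.05-fold, and Prdx2 fell by 2.01 ± 0.26 on the log2 scale with the smallest adjusted p of the 10 genes in this comparison (0.000196). Leaving out leukemic MEP replicate 3 gave -1.80 ± 0.24 (adjusted p = 0.000175). Control marrow had 303, 429.8 and 389 FPKM and GFP+ marrow 168, 168 and 144 FPKM. The groups did not overlap and the GFP+ libraries lay close together. Means of 374 ± 64.8 and 160 ± 14 FPKM (SD, n = 3 each) differed 2.34-fold, with a fall of 1.21 ± 0.26 on the log2 scale (adjusted p = 0.0131). This call was lost without control marrow replicate 2 (-1.10, adjusted p = 0.0778) and without control marrow replicate 3 (-1.17, adjusted p = 0.0682). Relative to Gata1, Prdx2 was at 1.66, 2.51 and 2.56 in control MEP and at 0.878, 0.846 and 3.3 in leukemic MEP. In marrow the Prdx2 to Gata1 ratio was 2.97, 3.1 and 3.01 in controls and 8.38, 6.83 and 3.68 in GFP+ cells, so it was higher there in GFP+ cells while that of Car2 was lower. RefSeq names the pseudogene copies Prdx2-ps1 and Prdx2-ps2. How reads that fit several places were counted is not given in the sources used here, which leaves this level uncertain to that extent, and likewise those of Gpx4 and Txn1, which also have named copies.

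Gpx1, the selenium enzyme that reduces hydrogen peroxide with glutathione, was high in every library. Unlike Prdx2, it had a positive change in both comparisons, but neither change passed. In MEP it was at 1216, 2282 and 1605 FPKM in controls and 2596, 1983 and 2133 FPKM in leukemic cells, with overlapping groups and a change of 0.43 ± 0.30 (adjusted p = 0.307, or 0.46 ± 0.29, adjusted p = 0.265, without leukemic MEP replicate 3). In marrow it was at 1626, 2123 and 1983 FPKM in controls and 3374, 2838 and 3699 FPKM in GFP+ cells. Every GFP+ library was above every library of the other 3 groups. The marrow means were 1911 ± 256 and 3304 ± 435 FPKM (SD, n = 3 each), yet the change of 0.79 ± 0.30 on the log2 scale did not pass over all genes (adjusted p = 0.129). It passed in 4 of 23 other fits. These were the marrow groups fitted alone (0.79 ± 0.18, adjusted p = 0.0243) and the fit without leukemic MEP replicate 3 (0.79 ± 0.26, adjusted p = 0.0498). The others were voom on recovered reads (0.64 ± 0.21, adjusted p = 0.0485) and array weights (0.73 ± 0.20, adjusted p = 0.0149). The marrow change of Gpx1 was 0.55 ± 0.25 with equal FPKM totals (adjusted p = 0.194) and 0.11 ± 0.32 with quantile scaling (adjusted p = 0.868). Gpx4, which reduces lipid peroxides in membranes, was at 66.5, 131 and 94.7 FPKM in control MEP and 95.4, 83 and 45.8 FPKM in leukemic MEP. In marrow it was at 49.6, 63.8 and 64.9 FPKM in controls and 61.1, 56.2 and 67.7 FPKM in GFP+ cells. Both pairs of groups overlapped, and the changes were -0.39 ± 0.30 (adjusted p = 0.362) and 0.06 ± 0.30 (adjusted p = 0.936). Without leukemic MEP replicate 3 the MEP change of Gpx4 was -0.07 ± 0.25 (adjusted p = 0.875).

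Among the peroxide-removing enzymes, the RNA level of Gpx1 relative to that of Prdx2 differed between groups within single libraries. The Gpx1 to Prdx2 ratio was 2.42, 2.71 and 2.17 in control MEP and 12.2, 11.2 and 17.1 in leukemic MEP. In control marrow it was 5.37, 4.94 and 5.1, and in GFP+ marrow 20, 16.9 and 25.7. The 4 groups did not overlap except between the highest leukemic MEP library, replicate 3, and the lowest GFP+ library. Without that library leukemic MEP lay between control marrow and GFP+ marrow. The Gpx1 to Cat ratio overlapped in MEP, at 12.9, 33.3 and 23.9 in control and 35, 28.8 and 42.2 in leukemic libraries. In marrow the Gpx1 to Cat ratio was 21.7, 29.1 and 27.5 in controls and 45.2, 38.5 and 67.3 in GFP+ cells, without overlap. Both ratios are given as a description without a test.

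**Figure D4:**
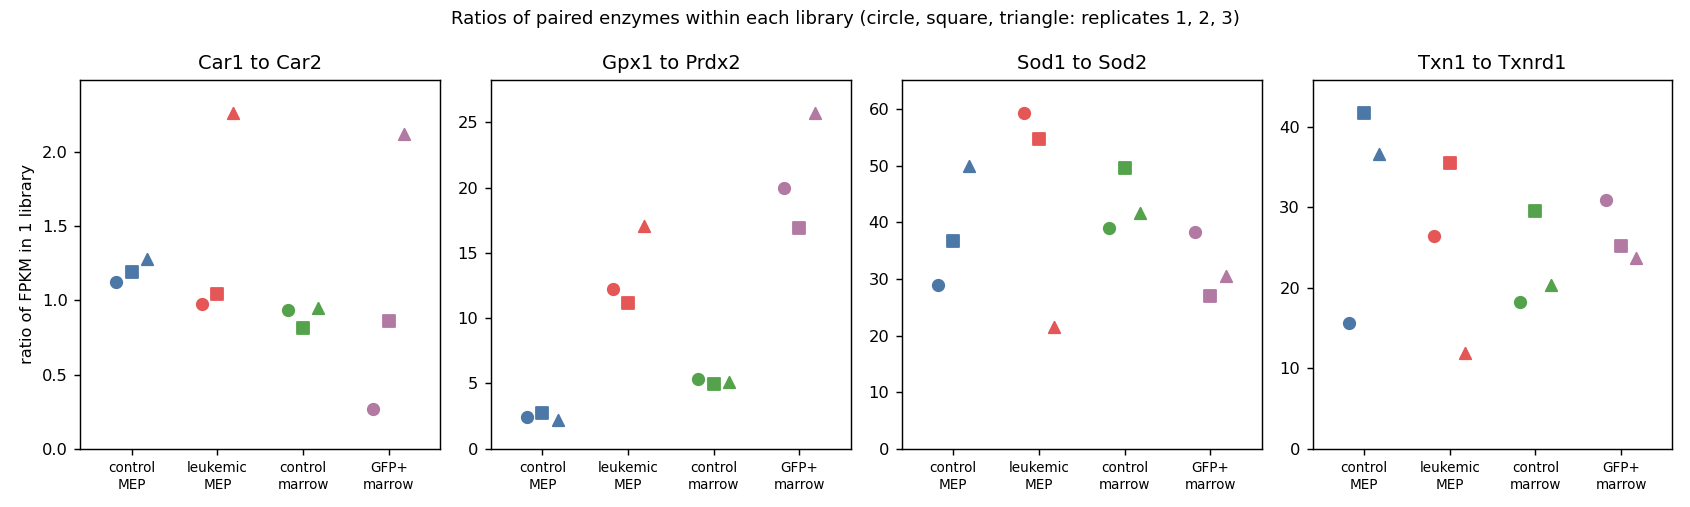
Ratio of FPKM between 2 genes in each library for Car1 to Car2, Gpx1 to Prdx2, Sod1 to Sod2 and Txn1 to Txnrd1, for each group; replicates 1, 2 and 3 are drawn as circle, square and triangle, and the axes start at 0. The Gpx1 to Prdx2 ratio runs from 2.17 to 2.71 in control MEP and from 11.2 to 17.1 in leukemic MEP, and Car1 to Car2 exceeds 2 in replicate 3 of each Prdm16s group alone.

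Txn1, the cytosolic thioredoxin, was at 233, 609.5 and 506 FPKM in control MEP and 561, 605 and 301 FPKM in leukemic MEP. Control marrow had 351, 522 and 438 FPKM and GFP+ marrow 543, 457 and 398 FPKM. The groups overlapped throughout, and neither change passed, at 0.17 ± 0.37 in MEP (adjusted p = 0.774) and 0.10 ± 0.37 in marrow (adjusted p = 0.905). Without leukemic MEP replicate 3 the MEP change of Txn1 was 0.48 ± 0.34 (adjusted p = 0.336). Txnrd1, the cytosolic thioredoxin reductase and a selenoprotein, was at 15, 14.6 and 13.8 FPKM in control MEP and 21.2, 17 and 25.4 FPKM in leukemic MEP. All 3 leukemic libraries were above all 3 control libraries, with a change of 0.50 ± 0.20 that did not pass (adjusted p = 0.0857) and was 0.37 ± 0.20 without leukemic MEP replicate 3 (adjusted p = 0.187). In marrow Txnrd1 was at 19.2, 17.6 and 21.5 FPKM in controls and 17.6, 18.2 and 16.8 FPKM in GFP+ cells, with a change of -0.14 ± 0.20 (adjusted p = 0.729). Txnrd1 overlaps the gene Eid3, which was at 0 to 3.85 FPKM, and the library kit named in the labels does not mark strand.

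In MEP, 5 of the 10 genes had groups that did not overlap, 4 lower and 1 (Txnrd1) higher, where 40.8% of all genes tested had such groups, 19.7% lower and 21.1% higher. In marrow 5 did so, 4 lower and 1 (Gpx1) higher, against 37.2% of all genes, 19.6% lower and 17.6% higher. None of the 10 differed between its MEP and its marrow change by the interaction test (0 called, against 4.89% of all genes, 4.52% as higher and 0.366% as lower). At an unadjusted p under 0.05 were 2, Sod2 and Txnrd1. Voom on recovered reads called 0 of the 10, in a fit that called 9.87% of all genes. For Car1 the difference of changes was 0.82 ± 1.21 and for Car2 0.52 ± 0.85 on the log2 scale, with adjusted p = 0.778 and 0.805. Prdx2 had -0.81 ± 0.37 (adjusted p = 0.285) and Txnrd1 0.64 ± 0.28 (adjusted p = 0.263). With errors of this size, a moderate difference between the populations in the loss of Car1 or Car2 was not detectable.

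The 2 control populations were then compared. Of the 10 genes, 2 were called higher in control MEP than in control marrow and 0 lower, where 15% of all genes were called, 2.63% as higher and 12.3% as lower. They were Sod2, by 0.83 ± 0.20 on the log2 scale (adjusted p = 0.0138), and Prdx2, by 0.88 ± 0.26 (adjusted p = 0.0415). Sod2 no longer passed when control MEP replicate 2 (0.70, adjusted p = 0.0695) or control marrow replicate 1 (0.75, adjusted p = 0.0798) was left out, and Prdx2 no longer passed in 9 of 23 other fits. Car1 and Car2 were higher in every control MEP library than in any control marrow library, yet at 1.80 ± 0.86 (adjusted p = 0.197) and 1.39 ± 0.60 (adjusted p = 0.157) they did not pass. The shared error in this fit includes the wide Prdm16s groups: with the 2 control groups fitted alone, 4 of the 10 were called, where 31.8% of all genes were. Groups did not overlap for 6 of the 10, 5 higher and 1 (Txnrd1) lower in MEP, against 46.4% of all genes, 20.3% higher and 26.1% lower. The median difference of the 10 was 0.66, against 0.03 over all genes.

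Between leukemic MEP and GFP+ marrow, 0 of the 10 were called, against 3.05% of all genes (0.977% as higher and 2.08% as lower). At an unadjusted p under 0.05 were 2, Car1 and Car2. Voom on recovered reads called 2 of the 10, in a fit that called 18.9% of all genes. Car1 differed by 2.63 ± 0.86 (adjusted p = 0.118) and Car2 by 1.90 ± 0.60 (adjusted p = 0.107). Without leukemic MEP replicate 3, the values were 3.04 for Car1 (adjusted p = 0.0415), 2.70 for Car2 (adjusted p = 0.00064) and 1.12 for Sod1 (adjusted p = 0.0208), so those 3 were called as higher in leukemic MEP, in a fit that called 15.5% of all genes. Groups did not overlap for 1 gene, Gpx1, lower in leukemic MEP with a log2 difference of -0.56 ± 0.30 (adjusted p = 0.333), against 15.9% of all genes, 7.62% higher and 8.3% lower. Prdx2 means were 172 ± 44.5 and 160 ± 14 FPKM (SD, n = 3 each), a log2 difference of 0.07 ± 0.26 (adjusted p = 0.917), and Sod2 means 26.2 ± 3.79 and 23.5 ± 2.28 FPKM, a difference of 0.15 ± 0.20 (adjusted p = 0.749), both with overlapping libraries.

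Genes of the same pathways were taken from 6 lists, whose median log2 changes are to be read against those of all genes tested, 0.02 in MEP and -0.05 in marrow. The share of all genes called was 26% for MEP and 9.05% for marrow. Without leukemic MEP replicate 3 it was 27.4% and 18.7%, and list counts from that fit are to be read against these shares. Of the 18 list genes named for MEP, 15 were also called in that fit. Of 10 tested genes among other carbonic anhydrases and carbon dioxide transport, 1 rose and 3 fell in MEP, and 0 rose and 3 fell in marrow (median -0.10 and -0.11). Without leukemic MEP replicate 3, 2 rose and 3 fell in MEP (median -0.03), and 0 rose and 3 fell in marrow. Aqp1, a water channel of the red cell membrane that also passes carbon dioxide, went from 787 ± 207 to 109.8 ± 52.6 FPKM in MEP (log2 change -2.92, adjusted p = 0.000567) and from 287 ± 28.8 to 14.5 ± 9.08 FPKM in marrow (-4.40, adjusted p = 8.63e-05). Rhag, of the Rh membrane complex, went from 233 ± 21.5 to 55 ± 36.7 FPKM in MEP (-2.38, adjusted p = 0.0125, or -1.64, adjusted p = 0.0225, without leukemic MEP replicate 3) and from 104 ± 8.28 to 9.98 ± 6.47 FPKM in marrow (-3.52, adjusted p = 0.00335). Slc4a1, the band 3 bicarbonate and chloride exchanger, fell in marrow from 16.6 ± 4.48 to 0.0647 ± 0.0906 FPKM (-4.02, adjusted p = 3.75e-06). The gene that rose in MEP was Car9, a membrane-bound carbonic anhydrase known as a hypoxia target, from 2.45 ± 0.379 to 13.2 ± 3.06 FPKM (2.02, adjusted p = 7.97e-05). All errors here are SD over 3 libraries.

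In the thioredoxin and peroxiredoxin list of 17 tested genes, 4 rose and 6 fell in MEP, and 2 rose and 1 fell in marrow (median -0.46 and -0.08). Leaving out leukemic MEP replicate 3 gave 3 and 5 in MEP (median -0.26) and 3 and 2 in marrow. Txnip, which binds and inhibits thioredoxin, rose in both: from 35.9 ± 10.7 to 213 ± 42 FPKM in MEP (log2 change 2.56, adjusted p = 1.59e-05) and from 49 ± 6.97 to 118 ± 3.33 FPKM in marrow (1.26, adjusted p = 0.00633). Txnrd2, the mitochondrial thioredoxin reductase, fell in both, from 75.1 ± 2.84 to 19.2 ± 3.7 FPKM in MEP (-1.93, adjusted p = 5.64e-05) and from 37.8 ± 5.53 to 15.9 ± 2.84 FPKM in marrow (-1.20, adjusted p = 0.00396). Unlike its cytosolic counterpart Txnrd1, it thus passed in both comparisons; the difference between the reductases was not tested. Prdx3, the mitochondrial peroxiredoxin, fell in MEP from 456 ± 59.4 to 157 ± 60.3 FPKM (-1.60, adjusted p = 0.00164). Glrx, glutaredoxin, rose in marrow from 134 ± 4.91 to 509 ± 59.1 FPKM (1.91, adjusted p = 0.0221).

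Of 14 tested glutathione and NADPH genes, 4 rose and 2 fell in MEP and 2 rose and 0 fell in marrow; without leukemic MEP replicate 3 the counts were 6 and 4, and 7 and 1. The list's median was 0.55 in MEP, or -0.02 without that library, and 0.92 in marrow. Gstm1, a glutathione transferase, was at 9.04, 13.5 and 8.1 FPKM in control MEP and 66, 53.2 and 612 FPKM in leukemic MEP (log2 change 3.57, adjusted p = 0.00234). The high library was replicate 3, in which granulocyte markers summed to 94619 FPKM, and Gstm1 was at 322 to 369.6 FPKM in control marrow. Without that library its log2 change in MEP was 2.46 (adjusted p = 9.4e-06) and that of Idh1 1.78 (adjusted p = 0.000321). Idh1, the cytosolic NADP isocitrate dehydrogenase, had the same order, at 25.7, 44.2 and 171 FPKM in leukemic MEP against 7.85 to 12.2 FPKM in control MEP (2.55, adjusted p = 0.00303), and rose in marrow from 70.6 ± 9.99 to 273 ± 25.7 FPKM (1.94, adjusted p = 0.0315). Gclm, the modifier subunit of the first enzyme of glutathione synthesis, rose in marrow from 66.2 ± 6.32 to 173 ± 58.2 FPKM (1.32, adjusted p = 0.023). Gstp1, another glutathione transferase, fell in MEP from 349 ± 117 to 151 ± 47.1 FPKM (-1.20, adjusted p = 0.014).

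Among 9 tested genes of superoxide, copper and haem handling, 1 rose and 3 fell in MEP, and 1 rose and 2 fell in marrow (median -0.67 and -0.24). With leukemic MEP replicate 3 left out, 1 rose and 3 fell in MEP (median -0.35), and 1 rose and 4 fell in marrow. Hmox2, the constitutive haem oxygenase, rose from 26.5 ± 3.71 to 66.1 ± 8.54 FPKM in MEP (log2 change 1.29, adjusted p = 0.000381) and from 50.4 ± 3.54 to 108 ± 8.26 FPKM in marrow (1.09, adjusted p = 0.00304). Hmox1, the inducible haem oxygenase that macrophages use to recycle haem, fell in marrow from 193 ± 17.3 to 14.5 ± 11.1 FPKM (-3.90, adjusted p = 0.000384), where the macrophage marker sum was also lower. Blvrb, the NADPH-dependent biliverdin reductase B of red cells, fell from 817 ± 258 to 111 ± 63.9 FPKM in MEP (-3.04, adjusted p = 0.00195, or -2.44, adjusted p = 0.00278, without that library) and from 333 ± 81.8 to 43 ± 34.9 FPKM in marrow (-3.17, adjusted p = 0.00386). Fth1, the ferritin heavy chain, fell in MEP from 1825 ± 477 to 593 ± 144 FPKM (-1.61, adjusted p = 0.00142).

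Of 11 tested regulators of antioxidant genes, 1 rose and 2 fell in MEP, and 0 were called in marrow (median 0.32 and -0.06). Without leukemic MEP replicate 3, 2 rose and 1 fell in MEP (median 0.23) and 1 fell in marrow. Nfe2l2, which encodes the oxidative stress factor NRF2, fell in MEP from 71.2 ± 15.2 to 41.6 ± 3.23 FPKM (log2 change -0.74, adjusted p = 0.015). Trp53 fell from 309.6 ± 44.6 to 189 ± 41.1 FPKM (-0.72, adjusted p = 0.0265). Mafg, a small MAF protein that pairs with NFE2 and NRF2, rose from 9.62 ± 3.02 to 30.4 ± 19.7 FPKM (1.41, adjusted p = 0.0362), with leukemic libraries at 25.4, 13.7 and 52.2 FPKM. Both calls were lost without leukemic MEP replicate 3, at -0.55 for Trp53 (adjusted p = 0.0502) and 0.93 for Mafg (adjusted p = 0.102). Of 20 selenoprotein and selenium-handling genes, all tested, 2 rose and 1 fell in MEP, and 1 rose and 1 fell in marrow (median -0.28 and 0.02). With that library left out the counts were 3 and 2 in MEP, where the median was 0.05, and 4 and 1 in marrow. Selenom rose in MEP from 0.148 ± 0.111 to 4.23 ± 1.35 FPKM (2.16, adjusted p = 0.000283). Selenon rose in MEP from 3.19 ± 0.482 to 8.03 ± 3.2 FPKM (1.06, adjusted p = 0.0216, or 0.79, adjusted p = 0.0516, without that library). In marrow Selenon rose from 5.23 ± 1.44 to 13.2 ± 2.14 FPKM (1.21, adjusted p = 0.0256). Selenop, the selenium carrier, fell in marrow from 176 ± 16.6 to 33.1 ± 16.1 FPKM (-2.47, adjusted p = 0.00854). Sephs2, which makes the selenium donor for these proteins, fell in MEP from 177 ± 8.41 to 125 ± 10.5 FPKM (-0.50, adjusted p = 0.0421). Gpx1, Gpx4 and Txnrd1, themselves selenoproteins, passed in neither comparison.

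**Figure D5:**
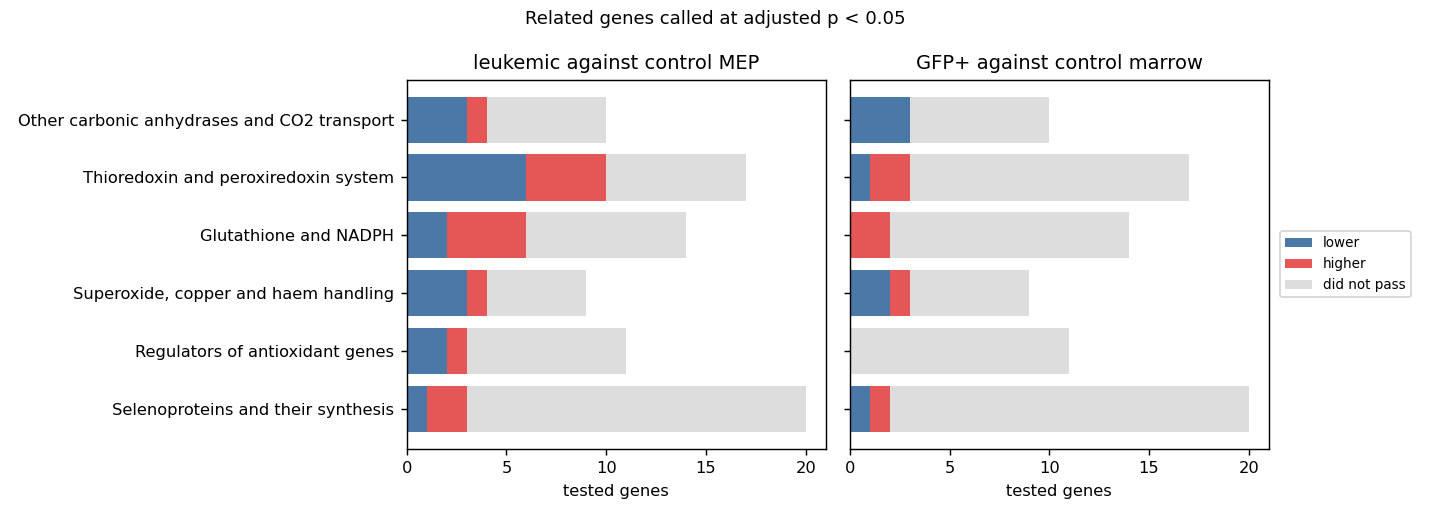
Number of tested genes (horizontal axis) that were lower, higher or did not pass an adjusted p of 0.05 in each of 6 lists of related genes, in leukemic against control MEP and in GFP+ against control marrow. In MEP the thioredoxin and peroxiredoxin list has 6 lower and 4 higher of 17 and the glutathione and NADPH list 2 lower and 4 higher of 14; without leukemic MEP replicate 3 these are 5 and 3, and 4 and 6.

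The genes whose pattern over the 12 libraries was most like each of the 10 were ranked by Pearson's r of log2(FPKM + 1) among 6563 genes, as a description: the libraries form 4 groups and share their depth. Car2 was closest to Blvrb (r = 0.992), Abcb4 (0.990) and Slc14a1, the red cell urea transporter (0.987). Car1 was closest to Fam109b (0.977), Sept8 (0.971) and Cited4 (0.970). For Prdx2 the closest was Klhdc2 (0.984), for Sod1 Bex3 (0.975), for Sod2 the proteasome assembly factor Psmd9 (0.970), for Gpx1 the outer mitochondrial membrane protein Tspo (0.966), for Txn1 the respiratory chain subunit Ndufa6 (0.961) and for Gpx4 the mitochondrial ribosomal protein Mrps24 (0.959). Txnrd1 (Arap1, 0.931) and Cat (Actr8, 0.924) had the weakest closest partners. Among the 10 themselves, Car1 and Car2 had r = 0.96, Sod2 and Prdx2 0.92 and Car2 and Prdx2 0.90, while Car2 and Gpx1 had -0.73.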

How the data were processed

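The deposited table holds FPKM values of 24107 genes in 12 libraries, computed by the authors. Per the submitters' processing notes, CASAVA, bcl2fastq, STAR 2.5.3a and DESeq2 1.18.1 were used with mm10. Annotation and read counter: not given in the sources used here. Libraries were made from sorted cells with Smart-seq2 and Nextera XT, per the labels' protocols. Whole reads were recovered from the values of all 16728 genes above 0 (100%, tolerance 0.02), which gave depths of 571630 to 9707791 reads. The deposited FPKM follow median-of-ratios size factors, so their totals differ between libraries.

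The main test was limma 3.58.1 (limma-trend) on log2(FPKM + 1), with 4 groups in 1 fit (8 residual degrees of freedom), over 11462 genes with at least 1 FPKM in at least 3 libraries, Benjamini-Hochberg adjusted over all of them. Log2 changes understate low genes. The members and lists were chosen with earlier results of these data known. Named from each related list were up to 3 genes with the smallest p in each comparison among those called, and, for likeness, the 3 highest r among genes reaching a mean of 10 FPKM in a group. The fit was also run on simulated data with equal spread in all libraries. That setting has no outlying library such as leukemic MEP replicate 3, so it does not test the fit for one. Alternatives included voom on recovered reads and leaving out each library. Sequences are RefSeq GRCm38.p6, positions GRCm38.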

Additional observations from a re-analysis of the deposited data

How the results depend on the processing

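Each comparison was refitted 23 ways (22 for the difference of changes), 1 of them added after seeing the data: leaving out the 2 shallowest libraries. Falls of Car1, Car2, Sod2 and Prdx2 in MEP and of Car1 and Car2 in marrow passed in all 23. Of 1140 refitted changes of single genes, 1013 kept sign and side of the threshold, 69 changed sign, 45 came to pass and 13 ceased to; the causes were not tested. Of the 10 genes, 4 were called in MEP (4 to 5 leaving out 1 library), 7 with array weights and 7 with replicate 3 as the only Prdm16s libraries, fits that called 53.7% and 51.2% of all genes. In marrow 3 were called (2 to 4), 5 with only the groups compared fitted and 5 with array weights (15.4% and 30.1% of all genes). The difference of changes had 0 (0 to 0), 3 with array weights and 3 with replicate 3 only (25.9% and 34.3%). The control populations had 2 (0 to 3): 1 without a filter, 4 with the groups fitted alone, 4 with quantile scaling, 4 with voom, 7 with array weights and 4 with replicate 3 only (10.8%, 31.8%, 15.8%, 23.8%, 48.1% and 32.7%). The leukemic populations had 0 (0 to 3): 1 with equal FPKM totals, 2 with voom, 4 with array weights and 1 without the 2 shallow libraries (5.6%, 18.9%, 28.7% and 15%).

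With the replicate number as a block, 4, 3, 0, 1 and 0 of the 10 were called in MEP, marrow, their difference, the control and the leukemic populations. The labels do not say what a number marks. Deviations of same-numbered libraries correlated at -0.157, -0.052 and -0.153 between control and leukemic MEP and at 0.017, -0.062 and 0.020 in marrow. Within a genotype the correlations were positive, at 0.497, 0.285 and 0.073 between the control populations and 0.086, 0.215 and 0.149 between the Prdm16s populations. Differently numbered libraries correlated at -0.453 to 0.228 between the control populations and at -0.168 to 0.061 between the Prdm16s populations. Some of these thus exceeded the lowest same-numbered value of the controls. Between the Prdm16s populations, every same-numbered value exceeded the highest differently numbered value. Whether the numbers mark a shared source within a genotype is not known, and the samples were not treated as paired.

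Changes that took the other sign lay near 0 in most cases. In MEP, Cat was 0.08 with array weights and Txn1 -0.47 with replicate 3 only. In marrow, Gpx4 was -0.18 with equal totals, -0.08 with voom and -0.02 with array weights, and Txn1 -0.14, -0.20, -0.07 and -0.11 with equal totals, quantile scaling, voom and replicate 3 only. For the difference of changes, Car1 was -0.93 with quantile scaling and -2.55 with replicate 3 only, and Car2 -0.09 and -2.23. There Sod1 was 0.14, 0.32, 0.13 and 0.43 with equal totals, voom, array weights and without the shallow libraries, and Cat 0.14, 0.27, 0.08 and 0.11, with 0.12 after quantile scaling. Gpx1 was 0.31 with quantile scaling, Gpx4 0.01 with voom and Txn1 -0.35 with replicate 3 only. Between the control populations, Cat was -0.06 (quantile scaling) and -0.08 (array weights), Gpx1 0.37 (quantile scaling) and Txn1 0.12 (equal totals) and 0.12 (array weights). Between the leukemic populations, replicate 3 alone gave Car1 -0.75, Car2 -0.84, Sod1 -0.50, Prdx2 -0.21, Gpx4 -0.55 and Txn1 -0.40. Cat was 0.36, 0.06, 0.34 and 0.15 with equal totals, quantile scaling, voom and without the shallow libraries, and Gpx1 0.68 with quantile scaling.

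Leaving out 1 library at a time, changes crossing 0 were those of Txn1 in MEP (-0.25 to 0.48), Cat (-0.20 to 0.02), Gpx4 (-0.07 to 0.13) and Txn1 (-0.05 to 0.24) in marrow, Car1 (-0.29 to 2.10), Sod1 (-0.42 to 0.47), Cat (-0.26 to 0.04) and Txn1 (-0.35 to 0.38) for the difference, Cat (-0.11 to 0.13), Gpx1 (-0.44 to 0.01) and Txn1 (-0.33 to 0.36) between controls, and Cat (-0.22 to 0.09), Prdx2 (-0.10 to 0.28) and Txn1 (-0.17 to 0.33) between leukemic populations. Depth limits leukemic MEP replicate 3 most, with 224 reads of Car1 and 142 of Car2. Fits with replicate 3 only leave 1 library in a Prdm16s group, assumed to vary like the control groups.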

Other observations

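Replicate 3 of both Prdm16s groups had more Car1 than Car2, with Car1 to Car2 ratios of 2.26 in leukemic MEP and 2.12 in GFP+ marrow. The other 10 libraries ranged from 0.268 (GFP+ marrow replicate 1) to 1.28 (control MEP replicate 3). These 2 libraries also had Xist at 0 and 0.00658 FPKM and Ddx3y at 27.6 and 23.1 FPKM, unlike replicates 1 and 2 of their groups. The erythropoietin receptor gene Epor was at 4.41 and 0 FPKM in them. In replicates 1 and 2 Epor was at 46.2 and 37.4 FPKM in leukemic MEP, but at 4.36 and 8.79 FPKM in GFP+ marrow. A low Epor level was thus not particular to replicate 3. The pattern was noticed after the values were seen and was not tested.

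Control MEP replicate 1 was the lowest of its group for Sod1, Sod2, Prdx2, Gpx1, Gpx4 and Txn1 and the highest for Cat and Txnrd1, while its Car1 and Car2 were within 1.16-fold and 1.09-fold of the other 2. Its Txn1 to Txnrd1 ratio was 15.6, against 41.7 and 36.6 in replicates 2 and 3.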
